A study of Mus musculus with 6 samples.

Results

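The collagen genes were taken as the rows of the count table that were typed as protein coding and whose symbol has the collagen form, Col followed by a type number, the letter a and a chain number. This rule found 44 genes among the 33000 rows of the table, and it used no measured value. TruSeq mRNA libraries from frontal cortex were analysed for 3 wild-type (WT) mice and 3 mice homozygous for GFAP-IL6, all 3 months old and of the C57BL/6 strain. The GFAP-IL6 mice carry a transgene in which the promoter of Gfap, an astrocyte gene, drives the cytokine IL6. The sex of the mice is not given in the sources used here. These libraries served in the study as a benchmark for a pooled 3′-end protocol, and the comparison made here is GFAP-IL6 against WT within each collagen class.

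Collagens are secreted or membrane-bound proteins whose chains wind in groups into a triple helix, which needs glycine at the start of every repeated triplet of residues. Fibrillar collagens form the cable-like fibres of connective tissue, type IV collagen forms the sheet-like network of basement membranes, and the other classes decorate, link or anchor these structures. The brain has few collagen fibres outside the meninges and large vessels, and most of its collagen lies in the basement membranes of blood vessels and the pia mater, while some members are made by neurons.

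Parts of the coding sequence are given to make the repeat visible in the members on which the results turn. Each line is a stretch of 30 bases from the longest unbroken run of the repeat, read from the transcripts of GENCODE release M21 (assembly GRCm38), with glycine codons (GGN) in capitals. The stretches lie in exon 7 of Col27a1 (chr4:63245069-63245098, plus strand), exon 29 of Col4a2 (chr8:11429447-11429476, plus strand), exon 3 of Col4a1 (chr8:11247066-11247095, minus strand) and exon 9 of Col25a1 (chr3:130476369-130476398, plus strand).
Col27a1: GGCaacatgGGCttgcctGGGctctccGGA
Col4a2: GGGacacgaGGAgatgctGGActtccaGGA
Col4a1: GGAgaaagaGGCttgccaGGGttgcaaGGT
Col25a1: GGTgaccaaGGAcaggcaGGGcctccaGGA

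All 44 members held such runs, and the longest run per gene differed between the classes. It was 216 to 344 triplets long in the 11 fibrillar genes, with a median of 338. In the 6 type IV genes it was 39 to 66 triplets, since their helix is interrupted many times. The runs of the 9 FACIT genes (fibril-associated collagens with interrupted triple helices) had 32 to 113 triplets, and those of the 4 transmembrane genes had 40 to 56. The run of Col27a1, at 217 triplets, was with that of Col24a1 (216) the shortest of the fibrillar class.

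The libraries held 7559524 to 16877001 counts, and each GFAP-IL6 library was smaller than each WT library. As a check of the labels, the WT libraries held 0, 2 and 0 counts of Il6, while the GFAP-IL6 libraries held 12, 10 and 24. Gfap was at 878, 2059 and 1341 counts in the WT libraries, against 5773, 4889 and 7795 with the transgene. Transcripts of the transgene and the endogenous genes were not separated in these counts. WT replicate 3 stood apart by genes of the choroid plexus, the tissue that secretes cerebrospinal fluid. Its 7 marker genes summed to 618.5 CPM (counts per 1 M counts of the library, with TMM scaling) in that library and to 4.62 to 60.2 CPM in the other 5 libraries. WT replicate 2 stood apart by genes of the striatum, the brain region under the frontal cortex. Its sum over 6 markers was 284.5 CPM, against 131.2 to 170.9 CPM in the other 5 libraries. In WT replicate 2, 18 of the 44 collagens had their lowest level, against 2 to 8 in each other library. The share over all genes was not taken, and a link to the striatal genes was not tested. Values without WT replicate 2 or WT replicate 3 are given beside several of the collagens.

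Expression of the collagens was first compared between genes as TPM (the share of transcripts per 1 M), a level per gene length. Col6a1, a chain of the beaded filaments of type VI collagen, had the highest mean level over the 6 libraries, at 52.6 TPM. The type IV chains Col4a2 (42.1 TPM) and Col4a1 (27.5 TPM) came next, followed by the transmembrane collagen Col25a1 (21.4 TPM) and the FACIT genes Col16a1 (17.1 TPM) and Col19a1 (15.6 TPM). The ranges of neighbouring genes in this order overlapped, except that Col10a1, the lowest, lay wholly under Col6a6. Levels were over 10 TPM in every library for 7 collagens and over 1 TPM in every library for 27, while 12 stayed under 1 TPM in every library. The genes of type I collagen, the main collagen of skin and bone, were at a mean of 3.11 TPM (Col1a1) and 7.90 TPM (Col1a2). Together the collagens took 0.0529% to 0.0611% of the counts of the WT libraries and 0.0657% to 0.0765% of those of the GFAP-IL6 libraries, and the groups did not overlap.

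**Figure D1:**
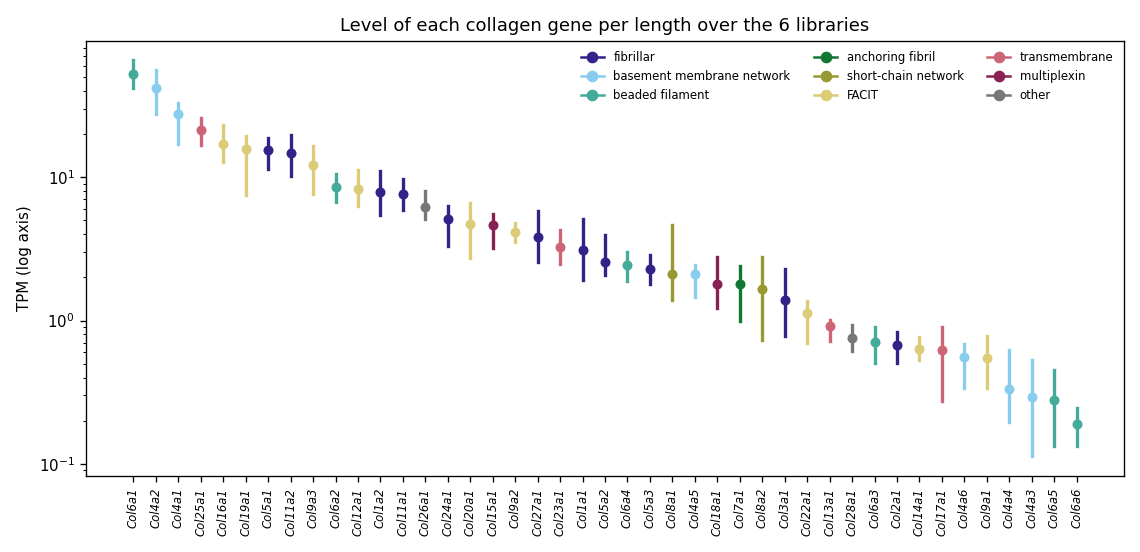
Level of each collagen gene in TPM (log axis), ordered by its mean over the 6 libraries, where the point is the mean and the line runs from the lowest to the highest library, with colours for classes. Col10a1, at 0 in some libraries, is left out, and Col6a1, Col4a2, Col4a1 and Col25a1 lead the order.

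Differential expression was then tested with edgeR’s quasi-likelihood F-test over the 15341 genes that passed the low-count filter, with Benjamini-Hochberg adjustment over all of them. Of the 44 collagens, 41 passed the filter. The exceptions were Col10a1 (0 to 2 counts per library), a collagen of growth-plate cartilage that stayed at or under the detection floor of 3 counts in every library, Col6a6 (5 to 12 counts) and Col9a1 (5 to 20 counts). Collagens rose at an adjusted p under 0.05 for 2 of the 41 genes (4.88%), namely Col4a2 and Col27a1, against 2.65% of all genes tested. Of the collagens 0 fell at this threshold, against 0.209% of all genes, while 3 (7.32%) were lower at an unadjusted p under 0.05, against 9.37% of all genes. DESeq2, the tool of the study, called the same 2 collagens higher (4.65%, against 2.55% of all genes it tested). It called Col25a1 lower (2.33%, against 0.654%). No collagen was also past an absolute log2 fold change of 1 in edgeR, the second threshold the study set, which 1.38% of all genes were.

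Smaller differences leaned upward. At an unadjusted p under 0.05, 11 of 41 collagens (26.8%) were higher in GFAP-IL6, against 11.1% of all genes. For 9 collagens (22%) each GFAP-IL6 library exceeded each WT library, against 13.8% of all genes, and for 1 (2.44%) each was lower, against 12.7%. The fitted log2 fold change was over 0 for 26 collagens (63.4%), against 49.4% of all genes, with a median of 0.17 for the collagens and -0.0038 for all genes. This lean was smaller in some of the alternative fits, and its cause was not tested. The collagens tested had a median length of 6306 bases and a median GC content of 55.7%, against 3134 bases and 49.8% for all genes tested. With an offset for length and GC content, an alternative chosen after the data were seen, the median of the collagens was 0.0059 and 21 were over 0. Without GFAP-IL6 replicate 3, the median was 0.037 and 22 of 42 were over 0. That library held the highest level of 16 of the 44 collagens, so a downward shift was built in. With any other library left out, the median was 0.17 to 0.24.

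**Figure D2:**
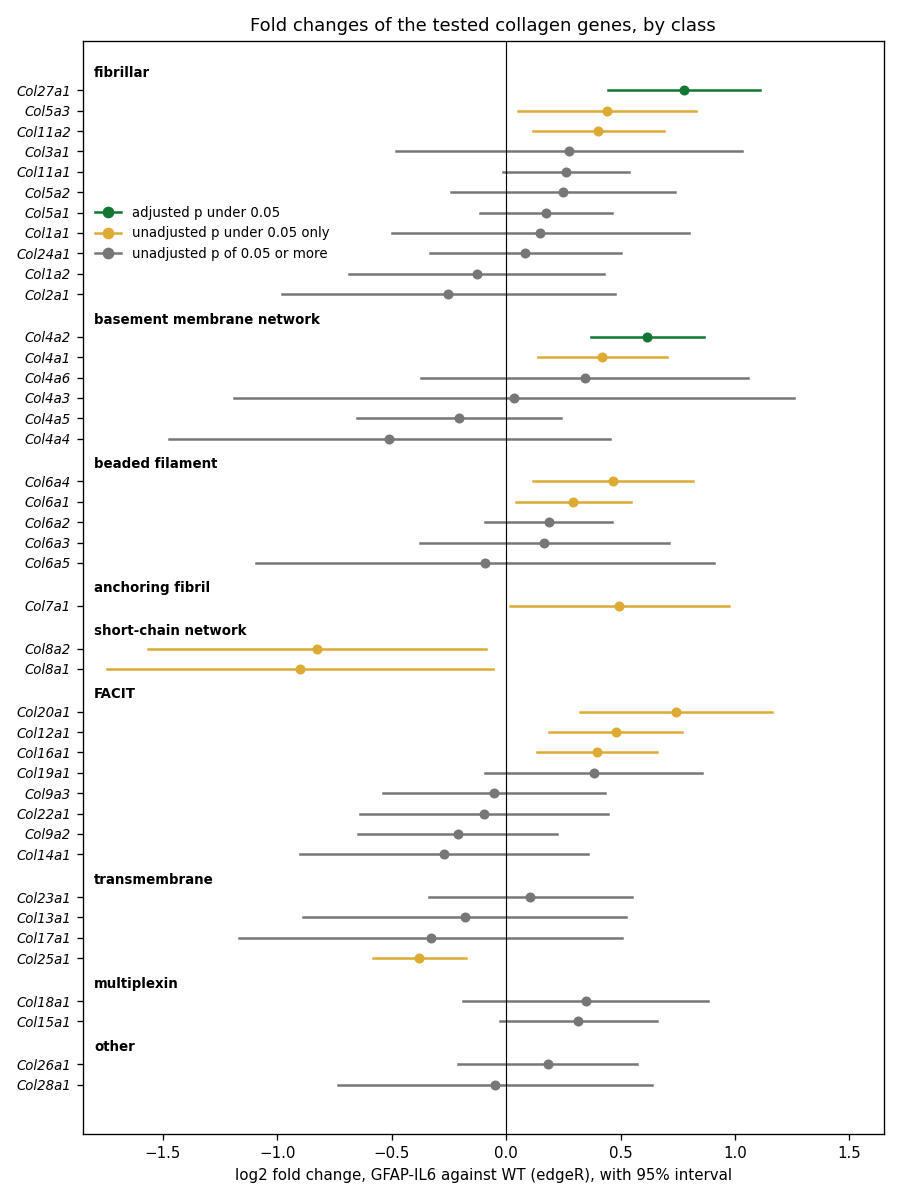
Log2 fold change of GFAP-IL6 against WT for the 41 tested collagens by class, as points with 95% confidence intervals from edgeR, n = 3 libraries per group. Col27a1 and Col4a2 (green) are past the adjusted threshold, and the intervals of Col25a1, Col8a1 and Col8a2 lie wholly under 0.

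Type IV collagen, the basement membrane network, was examined first, since it has the most abundant pair of chains. Col4a2 had 88.9, 66.0 and 70.1 CPM in WT replicates 1, 2 and 3 and 105.1, 125.7 and 113.9 CPM in GFAP-IL6. The groups did not overlap, with means of 75.0 ± 12.2 and 114.9 ± 10.3 CPM (SD, n = 3 each). This was a 1.53-fold rise (log2 fold change of 0.62 ± 0.11, SE), and edgeR gave an adjusted p of 0.00973. The call was lost without GFAP-IL6 replicate 2 (adjusted p of 0.0638 by edgeR) and without GFAP-IL6 replicate 3 (0.0686), with log2 fold changes of 0.55 and 0.63.

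Col4a1, whose chains join with that of Col4a2 in the common form of type IV collagen, had 64.8, 42.1 and 56.3 CPM in WT and 67.3, 75.4 and 75.2 CPM in GFAP-IL6. The groups did not overlap either, but the gap was narrow, as WT replicate 1 lay just under GFAP-IL6 replicate 1. The log2 fold change was 0.42 ± 0.13 (SE), with an unadjusted p of 0.00696 and an adjusted p of 0.110 by edgeR. With WT replicate 1 left out, the log2 fold change was 0.56 and edgeR gave an adjusted p of 0.0195, while without WT replicate 2, the lowest library, these were 0.26 and 0.131. The ratio of Col4a2 to Col4a1 in TPM was 1.41, 1.61 and 1.28 in WT and 1.602, 1.71 and 1.55 in GFAP-IL6, so that the groups overlapped.

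These genes lie head to head on chromosome 8. Col4a1 (ENSMUSG00000031502.9, chr8:11198423-11312826, minus strand) and Col4a2 (ENSMUSG00000031503.11, chr8:11312805-11449287, plus strand) overlap by 22 bases at their starts in GENCODE M21. Of the exon bases of Col4a1, 0.295% are shared with Col4a2. Of those of Col4a2, 0.982% are shared with Col4a1 or Gm15419, which lie on the opposite strand. The use of read strand in counting is not stated, so it is not known how reads in these bases were assigned. The same arrangement holds for Col4a3 and Col4a4 on chromosome 1, whose starts are 72 bases apart, and for Col4a5 and Col4a6 on chromosome X, 1309 bases apart.

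The other type IV chains, found in specialised basement membranes such as those of the kidney, were low. Col4a1 and Col4a2 made up 93.0% to 95.9% of type IV TPM in WT and 95.9% to 97.0% in GFAP-IL6. Col4a5 had 3.30 to 5.71 CPM over the 6 libraries and a log2 fold change of -0.21. For Col4a6 (0.784 to 1.56 CPM) it was 0.34, for Col4a3 (0.358 to 1.63 CPM) 0.03 and for Col4a4 (0.697 to 2.26 CPM) -0.51, and none of these 4 genes had an unadjusted p under 0.05. The summed level of the class was 70.3, 47.7 and 57.9 TPM in WT and 81.4, 92.2 and 87.9 TPM in GFAP-IL6, a ratio of means of 1.49 with groups that did not overlap.

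Summed markers of endothelial cells and of pericytes were, like these chains, higher in each GFAP-IL6 library, while those of smooth muscle overlapped. The 10 endothelial markers summed to 209 to 230.2 CPM in WT and 322.4 to 366.9 CPM in GFAP-IL6. Of these, 6 were called higher (Cldn5, Pecam1, Flt1, Esam, Slco1a4 and Ly6c1) and none was at 0. The 8 pericyte markers summed to 205 to 231.4 CPM in WT and 267.5 to 303 CPM in GFAP-IL6, with 1 called higher (Rgs5). Rgs5 alone had means of 109.6 CPM in WT and 146.2 CPM in GFAP-IL6. Cspg4, Abcc9 and Pdgfrb were higher at an unadjusted p under 0.05 by edgeR (log2 fold changes of 0.27 to 0.45). Kcnj8, Vtn, Higd1b and Anpep were not past it (-0.03 to 0.20). The smooth muscle markers (5 genes) summed to 20.7 to 41.5 CPM in WT and 33.01 to 44.7 CPM in GFAP-IL6, which overlapped, with 0 called. In bulk tissue, more cells of a type and more RNA per cell cannot be told apart, and the part of these cells in the type IV result was not tested.

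**Figure D3:**
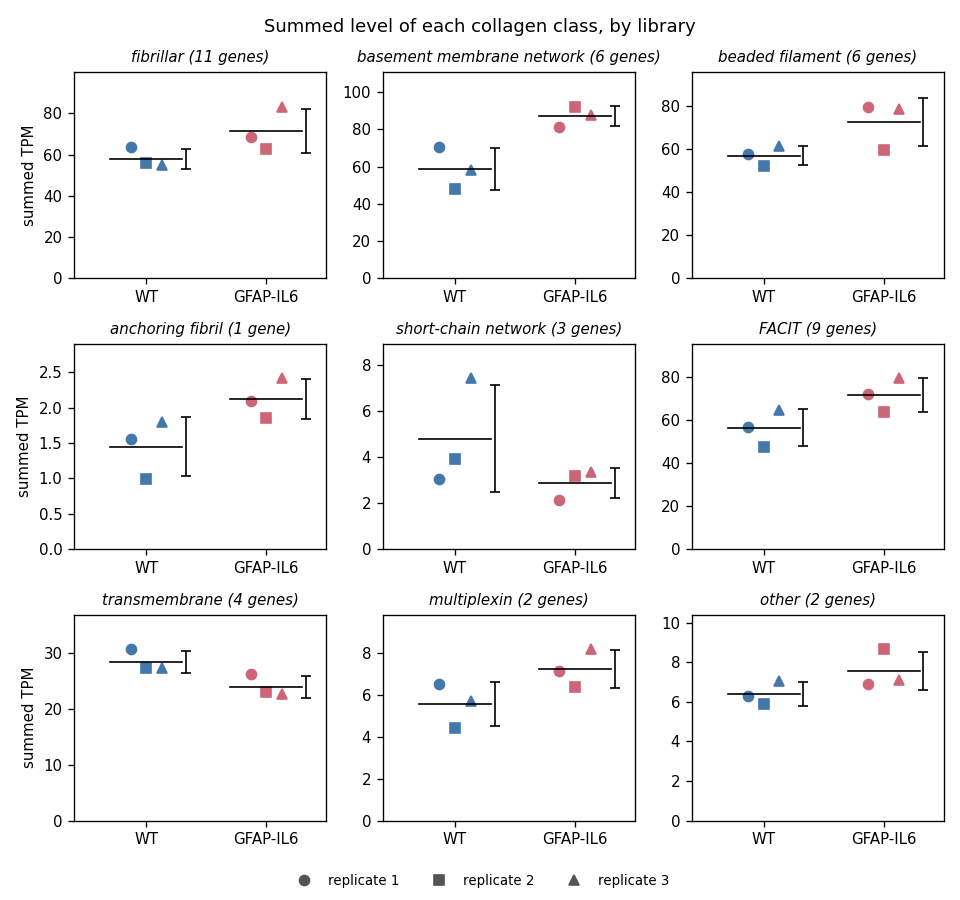
Summed TPM of each collagen class in each library, with symbols for replicates, a line for the group mean and a bar for the SD (n = 3 per group). The type IV class (47.7 to 70.3 TPM in WT, 81.4 to 92.2 in GFAP-IL6) and the 1-gene anchoring fibril class lie wholly higher and the transmembrane class wholly lower in GFAP-IL6, and the other classes overlap. The gap of the anchoring fibril class is narrow (1.79 TPM in WT replicate 3, 1.86 TPM in GFAP-IL6 replicate 2), and in CPM its groups overlap.

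Among the 11 fibrillar genes, 9 had a log2 fold change over 0 and 1 was called. Col27a1 (ENSMUSG00000045672.13, chr4:63214004-63334991, plus strand), a fibrillar collagen known from cartilage, had 7.32, 7.22 and 7.85 CPM in WT and 12.4, 10.7 and 15.2 CPM in GFAP-IL6. The WT libraries were close together, with an SD of 0.339 CPM, and the lowest GFAP-IL6 library was above all of them. With a log2 fold change of 0.78 ± 0.15 (SE), it rose 1.71-fold, and its adjusted p by edgeR was 0.0142. The adjusted p from edgeR was 0.0551 without GFAP-IL6 replicate 1, 0.114 without GFAP-IL6 replicate 3 and 0.0598 with the offset for length and GC content, with log2 fold changes of 0.80, 0.64 and 0.58.

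Of the minor fibrillar chains, which start or control the width of fibrils, Col11a2 had 32.0, 29.8 and 23.2 CPM in WT and 36.4, 32.4 and 43.0 CPM in GFAP-IL6. The highest WT and the lowest GFAP-IL6 library were close together, and the log2 fold change of 0.40 ± 0.13 (SE) had an adjusted p of 0.127 by edgeR. With WT replicate 1 left out, edgeR gave 0.0470. Col5a3, a chain of type V collagen, had 4.18, 4.30 and 3.96 CPM in WT and 5.199, 6.08 and 5.69 CPM in GFAP-IL6, again without overlap. Its log2 fold change was 0.44, with an adjusted p of 0.194 by edgeR. For Col5a1, the fibrillar gene with the highest TPM, the values were 48.5, 35.4 and 45.3 CPM in WT and 51.1, 39.5 and 54.1 CPM in GFAP-IL6, which overlapped. Its log2 fold change of 0.17 had an adjusted p of 0.479 by edgeR. The remaining minor and cartilage-type chains did not pass an unadjusted p of 0.05, with log2 fold changes of 0.26 for Col11a1, 0.25 for Col5a2, 0.08 for Col24a1 and -0.25 for Col2a1. The value of Col24a1 was 0.32 without WT replicate 3 and -0.13 without WT replicate 2.

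The major fibrillar collagens of connective tissue varied between single libraries rather than between groups. Col1a2 had 15.9, 20.3 and 10.5 CPM in WT and 11.9, 10.3 and 20.4 CPM in GFAP-IL6, with a log2 fold change of -0.13 and a 95% interval that included 0. This gene was added after its values were seen, and its direction turned without WT replicate 2 (0.13) and without GFAP-IL6 replicate 2 (0.040). Col1a1 (4.08 to 10.5 CPM) and Col3a1 (1.57 to 4.35 CPM) were, like Col1a2, highest in GFAP-IL6 replicate 3, with log2 fold changes of 0.15 and 0.27, which were -0.09 and 0.01 without WT replicate 3 and -0.30 and -0.08 without GFAP-IL6 replicate 3. The 9 markers of meningeal and perivascular fibroblasts summed to 90.2, 108.9 and 76.4 CPM in WT and 76.3, 76.5 and 119.7 CPM in GFAP-IL6. They were thus highest in GFAP-IL6 replicate 3 and WT replicate 2, the libraries in which Col1a2 was highest, and 0 of the 9 were called. The amount of meninges in each dissection was not tested.

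The FACIT class, collagens that sit on the surface of fibrils or in basement membranes, had 8 tested genes, of which 3 were higher at an unadjusted p under 0.05 and 0 passed the adjusted threshold. Col20a1 had 5.23, 4.24 and 5.84 CPM in WT and 6.81, 9.51 and 9.49 CPM in GFAP-IL6. With a log2 fold change of 0.74 ± 0.19 (SE), it came closest to the threshold within the class, with an adjusted p of 0.0628 by edgeR. Col12a1 had 29.3, 28.6 and 30.1 CPM in WT and 44.6, 30.4 and 46.9 CPM in GFAP-IL6. GFAP-IL6 replicate 2 lay just over the WT libraries, and the other two were far above them. The log2 fold change of 0.48 ± 0.13 (SE) had an adjusted p of 0.0828 by edgeR, or 0.64 with 0.00566 when that replicate was left out. Without GFAP-IL6 replicate 1 it was 0.40 with an adjusted p of 0.278, and without GFAP-IL6 replicate 3 it was 0.37 with 0.378.

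Col16a1, the FACIT gene with the highest TPM, had 27.7, 24.8 and 28.3 CPM in WT and 34.6, 29.6 and 41.8 CPM in GFAP-IL6. The groups did not overlap, and the log2 fold change of 0.40 ± 0.12 (SE) had an adjusted p of 0.107 by edgeR. Col19a1, which is known from interneurons, overlapped between groups (12.3 to 25.9 CPM in WT, 23.8 to 29.0 CPM in GFAP-IL6), with a log2 fold change of 0.38 that was 0.098 without WT replicate 2, the lowest library. The others were on the lower side of 0, with log2 fold changes of -0.05 for Col9a3, -0.10 for Col22a1, -0.21 for Col9a2 and -0.27 for Col14a1, and none passed an unadjusted p of 0.05.

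**Figure D4:**
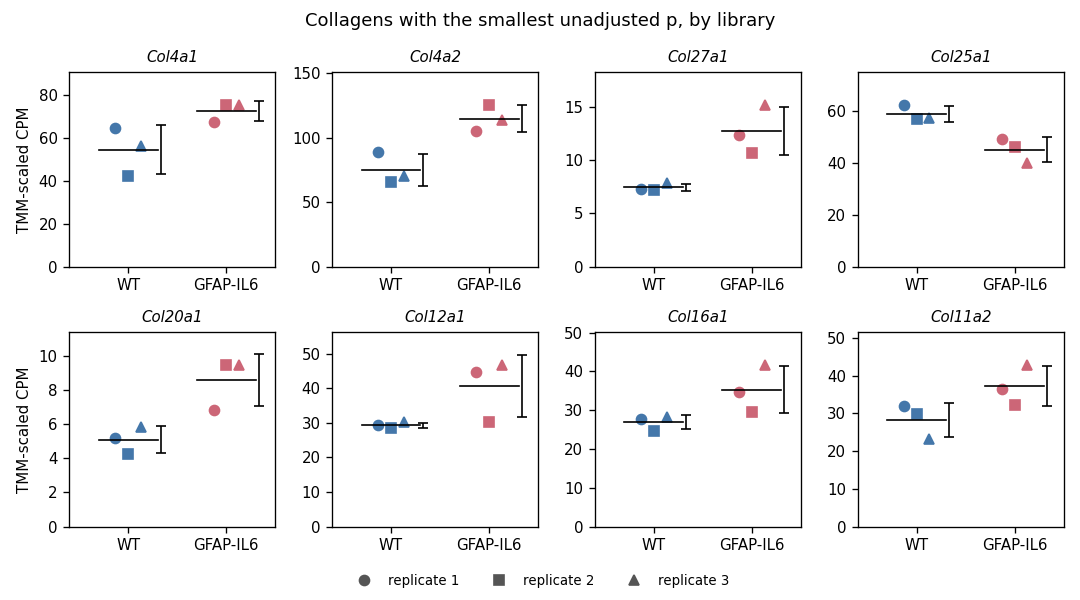
TMM-scaled CPM of the 8 collagens with the smallest unadjusted p in each library, with symbols for replicates, a line for the group mean and a bar for the SD (n = 3 per group). Col25a1 is lower in each GFAP-IL6 library than in each WT library, and the other 7 genes are higher in each GFAP-IL6 library, by a narrow gap for Col4a1, Col11a2 and Col12a1.

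The transmembrane collagens, which are anchored in the cell membrane and can be shed, were the only class whose summed level was lower in each GFAP-IL6 library. It was 30.7, 27.3 and 27.2 TPM in WT and 26.2, 23.02 and 22.6 TPM in GFAP-IL6, a ratio of means of 0.844. Col25a1 (ENSMUSG00000058897.15, chr3:130131501-130599877, plus strand), a collagen of neurons whose shed form is found in amyloid plaques, made up most of it, with 62.4, 57.0 and 57.1 CPM in WT and 49.3, 46.0 and 40.1 CPM in GFAP-IL6. The groups did not overlap, and the log2 fold change was -0.38 ± 0.09 (SE), with an unadjusted p of 0.00144. Its adjusted p of 0.05004 by edgeR lay just outside the threshold, while DESeq2 gave 0.0364. Over the 14 alternatives the adjusted p ranged from 0.00997 to 0.278, the log2 fold change ranged from -0.45 to -0.30, and 7 alternatives were past the threshold.

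The 6 neuronal markers summed to 6982 to 7397 CPM in WT and 5996 to 6936 CPM in GFAP-IL6, without overlap and with 0 called. Gad1 and Snap25 were lower at an unadjusted p under 0.05 by edgeR (log2 fold changes of -0.22 and -0.20). The other markers had -0.10 (Syt1), -0.03 (Tubb3), -0.0024 (Slc17a7) and 0.05 (Rbfox3). The part of neurons in the level of Col25a1 was not tested. The remaining members of the transmembrane class did not pass an unadjusted p of 0.05. Their log2 fold changes were 0.11 for Col23a1 (5.02 to 8.37 CPM; -0.04 without WT replicate 3), -0.18 for Col13a1 (0.792 to 1.19 CPM) and -0.33 for Col17a1 (0.528 to 1.70 CPM), a collagen of the junction between skin layers.

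Type VI collagen forms beaded filaments around cells, and 5 of its 6 genes were tested. Col6a1 had 65.9, 64.2 and 73.7 CPM in WT and 90.8, 66.8 and 91.5 CPM in GFAP-IL6. GFAP-IL6 replicate 2 lay within the WT range and the other two libraries above it, and the log2 fold change of 0.29 had an adjusted p of 0.186 by edgeR. Col6a4 had 5.4, 5.19 and 5.21 CPM in WT and 6.63, 7.66 and 7.59 CPM in GFAP-IL6, without overlap, with a log2 fold change of 0.46 and an adjusted p of 0.141 by edgeR. Col6a2 (14.9 to 21.5 CPM), Col6a3 (1.92 to 3.35 CPM) and Col6a5 (0.436 to 1.45 CPM) had log2 fold changes of 0.19, 0.17 and -0.09 with no unadjusted p under 0.05.

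Col7a1, the only gene of the anchoring fibrils that fasten skin layers together, had 5.05, 3.40 and 5.96 CPM in WT and 6.54, 5.94 and 7.70 CPM in GFAP-IL6. The lowest GFAP-IL6 library lay just under the highest WT library in CPM, so that the groups overlapped, and just over it in TPM. The log2 fold change of 0.49 had an adjusted p of 0.232 by edgeR. The multiplexins are vessel-associated collagens that carry sugar chains, and Col18a1 gives rise to endostatin. Col15a1 had 10.2, 7.22 and 8.79 CPM in WT and 11.3, 9.64 and 11.3 CPM in GFAP-IL6, which overlapped, with a log2 fold change of 0.32 and an adjusted p of 0.279 by edgeR. Col18a1 (2.98 to 6.25 CPM) had a log2 fold change of 0.35. Of the genes outside these classes, Col26a1 had 5.4, 5.31 and 6.34 CPM in WT and 5.65, 7.66 and 6.25 CPM in GFAP-IL6, with a log2 fold change of 0.18 and an adjusted p of 0.593 by edgeR. Col28a1 (0.893 to 1.35 CPM) had a log2 fold change of -0.05.

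The short-chain network collagens of type VIII, known from the basement membrane of the cornea and from vessel walls, had the lowest fitted fold changes among the collagens tested by edgeR, and both genes were highest in the library with choroid plexus RNA. Col8a1 had 2.61, 3.64 and 8.54 CPM in WT and 2.42, 3.04 and 2.68 CPM in GFAP-IL6. WT replicate 3 was far above the other libraries, which overlapped between groups. The log2 fold change of -0.90 ± 0.39 (SE) had an adjusted p of 0.218 by edgeR, and without WT replicate 3 it was -0.24 with an adjusted p of 0.664. Col8a2 had 2.27, 3.04 and 4.33 CPM in WT and 1.08, 1.98 and 2.57 CPM in GFAP-IL6, again with the highest value in WT replicate 3. The log2 fold change of Col8a2 was -0.83 ± 0.34 (SE, adjusted p of 0.199 by edgeR), and when WT replicate 3 was left out it was -0.56 (adjusted p of 0.414 by edgeR). It shrank further, to -0.51 (adjusted p of 0.527), without GFAP-IL6 replicate 1, the lowest library.

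WT replicate 3 was the highest library for 8 of the 44 collagens, within the range of 2 to 16 for the other libraries. The share over all genes was not taken, so this count is not a trait of the collagens. Among these 8 were Col4a3 (1.63 CPM), Col4a4 (2.26 CPM) and Col9a3 (18.1 CPM), which were picked out after their values were seen. Without WT replicate 3 the log2 fold changes of these genes were 1.02, 0.06 and 0.24, with no adjusted p under 0.05 by edgeR. An upward shift was built in, since the genes were picked for being highest in that library. Of the choroid plexus gene Ttr, which encodes the carrier protein transthyretin, there were 15, 187 and 8766 counts in the WT libraries, against 104, 358 and 15 in the GFAP-IL6 libraries. Of the 7 choroid plexus markers, Folr1 and Otx2 were at 0 in some libraries. The source of the higher type VIII values in WT replicate 3 was not tested.

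**Figure D5:**
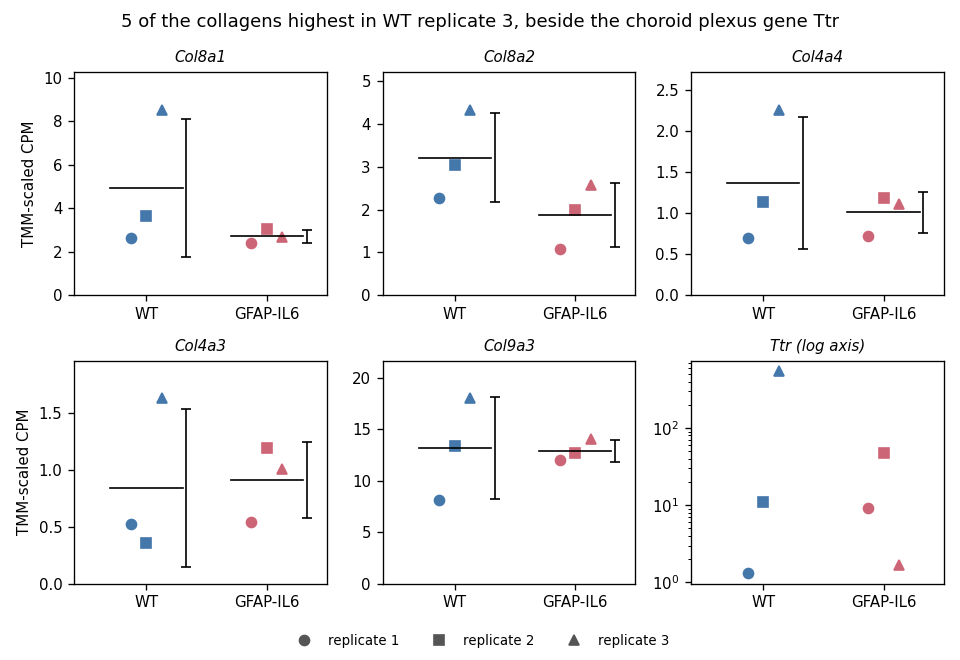
TMM-scaled CPM of 5 collagens that were highest in WT replicate 3 and of Ttr (log axis, no mean drawn) in each library, with symbols for replicates and, for the collagens, a line for the mean and a bar for the SD (n = 3 per group). The triangle of WT replicate 3 is the top point in each panel, at 8.54 CPM for Col8a1.

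Genes that build, bind or accompany collagens were then counted. Of 64 such genes in 4 lists, 59 were tested, and 4 (6.78%) were called higher, against 2.65% of all genes tested. None was called lower, against 0.209% of all genes, and 15 (25.4%) were higher at an unadjusted p under 0.05, against 11.1%. The lists were chosen with earlier results of these data known, so these shares are a description and not an independent test. Fn1, the matrix protein fibronectin, had 43.3, 38.3 and 38.5 CPM in WT and 73.4, 77.7 and 93.3 CPM in GFAP-IL6, without overlap. The log2 fold change was 1.03 ± 0.10 (SE, adjusted p of 8.7e-05 by edgeR), and Fn1 was the only call among 10 tested genes of fibril-associated proteins.

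Lamb2, a laminin chain that lies beside type IV collagen in vessel basement membranes, rose from 25.96, 23.3 and 22.5 CPM to 31.4, 37.9 and 38.7 CPM. It was the only call among 15 basement membrane partners, with a log2 fold change of 0.59 ± 0.11 (SE) and an adjusted p of 0.00872 by edgeR. Without GFAP-IL6 replicate 2 or 3, the adjusted p was 0.0544 or 0.0791 by edgeR. Lair1, an inhibitory collagen receptor of leukocytes, was the only call among 8 tested receptors and rose from 7.58, 9.42 and 8.85 CPM to 16.1, 14.3 and 14.7 CPM. The log2 fold change of Lair1 was 0.80 ± 0.13 (SE), and edgeR gave an adjusted p of 0.00463. The sum of 5 microglial markers was 235.4 to 275.3 CPM in WT and 438 to 525.6 CPM in GFAP-IL6. Of these markers 4 were called higher (Cx3cr1, Tmem119, Csf1r and Itgam). P2ry12 went the other way, with a log2 fold change of -0.27, and was not called. The part of microglia in the level of Lair1 was not tested.

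Plod3, an enzyme that hydroxylates lysines of collagen chains and adds sugars to them, was the only call among 26 tested genes of collagen assembly. It had 27.8, 27.7 and 27.4 CPM in WT and 35.7, 34.3 and 37.4 CPM in GFAP-IL6, and edgeR fitted a log2 fold change of 0.37 ± 0.09 (SE, adjusted p of 0.0341). This call was lost with DESeq2 (0.0688), with thinning to the smallest library (0.108), with the offset for length and GC content (0.0906), without WT replicate 3 (0.114) and without GFAP-IL6 replicate 1 (0.130), 2 (0.0849) or 3 (0.187). The log2 fold changes in these 7 fits were 0.27 to 0.40. The other cell type markers are given as sums. Astrocyte markers had 1012 to 1288 CPM in WT and 1558 to 2105 CPM in GFAP-IL6, with Gfap the only call. Gfap itself had 76.5 to 122.8 CPM in WT and 517.5 to 870.2 CPM in GFAP-IL6. The log2 fold changes of the other astrocyte markers were 0.42 (Aqp4), 0.04 (Gja1), -0.04 (Slc1a3) and -0.21 (Aldh1l1). Oligodendrocyte markers had 2752 to 5144 CPM in WT and 2769 to 4278 CPM in GFAP-IL6 with 0 called. Striatal markers had 153.1 to 284.5 and 131.2 to 170.9 CPM with 0 called.

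Promoter windows from RefSeq (GRCm38.p6, 250 bases before to 50 bases after a start) were searched on both strands for short motifs, as a description. Of the collagens, 35 genes had 38 windows. The letters TTCNNNGAA, the core of the sites of STAT proteins that act downstream of IL6, occurred in 2 of the collagen windows (5.26%, Col28a1 and Col6a5) and in 8.30% of all 32851 windows. The GC box GGGCGG occurred in 23 of the 38 windows (60.5%), against 35.7% of all windows, and the CCAAT box CCAAT in 13 (34.2%), against 37.4%.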

How the data were processed

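TruSeq mRNA sequencing of frontal cortex was analysed in 3 WT and 3 GFAP-IL6 mice, grouped by sample title. The authors aligned reads to mm10 with STAR 2.4 and counted unique reads per GENCODE M6 gene with featureCounts (tools per the labels and the methods), and deposited raw counts with a gene length. Whether read strand was used is not given in the sources used here. Library totals were 7559524 to 16877001 counts, so that 3 counts, used as the detection floor, equal 0.178 to 0.397 CPM. Floors cover counting error only. The counts of the 15 pairs of libraries differed by more than sampling noise (chi-square per degree of freedom of 2.23 to 20.1).

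edgeR 4.0.16 (R 4.3.3) was run on the counts of all genes with TMM scaling, filterByExpr and group as the only term. SE and 95% intervals were derived from the F statistic. TPM used the deposited length. Class sums had no test. DESeq2 1.42.0, limma-voom (limma 3.58.1), other filters and scalings, thinning and leaving out each library were run as alternatives. The fits were tested on simulated counts.

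The members, their classes, the partner and marker lists and the alternatives were chosen with earlier results of these data known. Collagens with an adjusted or unadjusted p under 0.05, the type IV pair and the gene with the highest TPM of each class were named with all values, as were partner genes past the adjusted threshold. All 44 identifiers matched GENCODE M21 on the same chromosome and strand. The longest coding transcript of each gene was used for the glycine repeat.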

Additional observations from a re-analysis of the deposited data

How the results depend on the processing

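The number of collagens called higher, 2 by edgeR, was 7 with no low-count filter (15.9% of collagens, against 3.54% of all genes under that setting), 5 with the replicate number as a block (12.2% against 3.87%) and 1 with the offset for length and GC content (2.44% against 2.77%). It ranged from 0 to 4 when each library was left out, with 4 without WT replicate 1 (9.76% against 4.46% of all genes), 1 without GFAP-IL6 replicate 1 (2.38% against 1.90%) and 0 without GFAP-IL6 replicate 3 (against 1.196%). The number called lower was 0 by edgeR, against 0.209% of all genes. It was 1 (Col25a1, 2.33% to 2.86% of collagens) with DESeq2 size factors (against 0.235% of all genes) and with DESeq2 (0.654%). The same held for the replicate block (1.02%), thinning to the smallest library (0.232%) and the offset (0.426%). With no filter it was 2 (Col25a1 and Col8a1, 4.55% against 1.56% of all genes). With a library left out it was 0 to 1 (1 without WT replicate 2, 2.44% against 0.316%). Partner genes called higher, 4 by edgeR, were 9 with no filter (14.3%, against 3.54% of all genes) and 8 with the block (13.6% against 3.87%). With a library left out they were 2 to 6. The highest number was without WT replicate 1 (10.2% against 4.46%). The lowest was without GFAP-IL6 replicate 2 (3.39% against 1.79%) or 3 (3.39% against 1.196%). Col5a1 reversed under the offset, to a log2 fold change of -0.0064 (adjusted p of 0.981 by edgeR). The causes were not tested. Deviations of same-numbered libraries from their group means correlated weakly (0.0996, 0.0147 and 0.0211). Correlations of differently numbered libraries ranged from -0.077 to 0.0524, the highest for WT replicate 2 with GFAP-IL6 replicate 3. These values cannot settle whether the numbers mark pairs, and the main fit had no block. Of 238 alternative fits of the 17 collagens that met the naming rule, which Col1a2 did not, 213 kept direction and side of the threshold, 5 lost it, 19 gained it and 1 reversed. Only Col4a2 and Col27a1 could lose a call, since the others were not called in the main fit. Col4a2 was called in 12 of 14 alternatives and Col27a1 in 11 of 14. Over all 41 tested collagens, the fitted direction turned for 1 to 6 genes when a library was left out, most without GFAP-IL6 replicate 3, and for 5 with the offset. The log2 ratio of the summed short-chain class went from -0.73 to -0.27 without WT replicate 3. Leaving out 1 of 3 libraries can move a group mean by less than its SD only, so the class sums were not tested for stability.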
